A study of Mus musculus with 3 samples.

Results

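Fatty acid uptake and carriage were followed through 7 genes, Gpihbp1, Lpl, Angptl4, Cd36, Fabp4, Fabp5 and Plin2, among the 30406 genes that all 3 libraries of the study share. The genes were listed by name, from the roles of their proteins and with earlier results of these data known. All 7 were found by symbol. The mice were wild type and 32 to 34 weeks old, and their heart cells were digested with collagenase and sorted for CD45, F4/80 and CD11b as macrophages. Each diet gave 1 droplet library, so the groups were WD (1 library, named Western diet in the series title), HFD (1 library, high fat diet) and CD (1 library, control diet). All 3 shared genotype, age, tissue and sort. The sources used here give neither diet composition nor feeding time nor the number of mice behind a library. With 1 library per diet, differences between diets have no replicate check, and none was tested.

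Triglyceride-rich lipoproteins are too large to leave a capillary, so the heart takes fatty acids from them at the vessel wall. There lipoprotein lipase, held by its anchor on endothelial cells and restrained by angiopoietin-like proteins, frees fatty acids that membrane receptors and cytosolic carriers pass on. Macrophages also take up lipid through scavenger receptors and keep it in droplets coated by perilipins.

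Levels are UMIs (molecular tags, each counted once per captured transcript) scaled to counts per 1e6 UMIs of the shared genes (CPM), with 95% intervals that cover counting error only. These 3′ counts are not scaled by transcript length, so levels were not compared between genes. A barcode counted as a cell from 1000 UMIs and 200 genes upward, unless mitochondrial genes exceeded 10% of its UMIs, which gave 4775 cells in WD, 2717 in HFD and 2679 in CD, with medians of 11668, 2751 and 4223 UMIs. Cells in which C1qa, C1qb and C1qc together made at least 0.3% of UMIs were called C1q cells: 3717 in WD, 2002 in HFD and 2293 in CD. Of the others, those with a UMI of Pecam1 or Cdh5 met the endothelial rule (155 in WD, 487 in HFD and 197 in CD), and 903, 228 and 189 cells formed the rest. For HFD and CD, barcodes of 1 to 50 UMIs, which hold mainly RNA free in the suspension, were summed as near-empty barcodes. The WD file holds none, since its smallest barcode has 504 UMIs.

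The classes were checked against marker lists. C1q cells carried all 8 macrophage markers, at 12387 CPM in WD, 24533 CPM in HFD and 20956 CPM in CD. Cells under the endothelial rule carried 10 of 10 endothelial markers in HFD and CD, summing to 9272 and 9137 CPM, and 470 of 487 HFD cells (96.5%) and 188 of 197 CD cells (95.4%) had at least 4 of the 10. In WD the label went against the data: 1 of 155 cells (0.645%) had at least 4 markers, the sum was 165 CPM, Egfl7 and Tie1 were at 0, and other lists reached 4977 CPM for macrophage, 1429 CPM for natural killer cell, 836 CPM for monocyte and 712 CPM for fibroblast markers. These 155 cells are therefore called the WD cells with Pecam1 or Cdh5. Endothelial cells lack CD45 and should not pass the sort. Under the endothelial rule, mural cell markers reached 1771 CPM in HFD and 39.7 CPM in CD, erythroid markers 5.89 CPM in HFD and 30938 CPM in CD, and cardiomyocyte markers 285 CPM in HFD and 1190 CPM in CD. The part of these other cells in the levels was not tested. Adipocyte markers other than Lipe were at 0 in cells under the endothelial rule in every library. Near the C1q threshold, between 0.2% and 0.4% of UMIs, lay 444 WD cells (9.30%), 25 HFD cells (0.920%) and 27 CD cells (1.01%). HFD and CD cells shared 15 barcodes, WD and CD shared 1, and WD and HFD shared 0. The WD library stood apart in depth, in software version and in its barcodes, of which 92 of 6885 occur in the CD barcode list although the labels name the same kit for all 3, so diet and library cannot be told apart in any comparison with WD.

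On the GRCm38 assembly, with the GENCODE vM21 annotation, all 7 are protein-coding genes and no other annotated gene overlaps a member. Fabp4 (chromosome 3, 10204088 to 10208576, minus strand) and Fabp5 (chromosome 3, 10012548 to 10016607, plus strand) lie on the same chromosome. Cd36 spans chromosome 5 from 17781690 to 17888801 on the minus strand, with 103522 bases outside exons. Plin2 spans chromosome 4 from 86648386 to 86670060 on the minus strand. Gpihbp1 (chromosome 15, 75596628 to 75599481, plus strand) is the shortest of the 7, Lpl lies on chromosome 8 from 68880491 to 68907448 on the plus strand, and Angptl4 on chromosome 17 from 33773750 to 33781830 on the minus strand. Of the 50-base words of Fabp5 transcripts, 5.48% also occur in other genes, among them Gm6166, Gm14328 and Fabp5l2, so Fabp5 counts may be split with these copies. For Plin2 the share is 2.57%, with Gm12551, and for Lpl 1.40%.

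RefSeq promoter windows, 250 bases before to 50 bases after the gene start on GRCm38.p6, were matched for 2 of the 7 genes, Cd36 and Plin2. The start is RefSeq's, and for Cd36 the window lies inside the GENCODE span of the gene. Both are shown because no window was available for the other members. Both are read 5′ to 3′ on the minus strand, and the capitals mark the hexamer AGGTCA, read on the opposite strand, which is the core letter pattern bound by PPAR and other nuclear receptors. The Cd36 window is chr5:17835847-17836146 and the Plin2 window is chr4:86670010-86670309.
Cd36: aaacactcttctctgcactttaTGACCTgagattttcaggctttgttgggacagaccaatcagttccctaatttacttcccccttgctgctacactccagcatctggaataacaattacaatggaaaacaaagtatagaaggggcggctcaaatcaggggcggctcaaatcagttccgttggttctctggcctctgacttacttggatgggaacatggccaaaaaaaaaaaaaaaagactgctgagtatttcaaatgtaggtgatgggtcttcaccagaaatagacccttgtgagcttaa
Plin2: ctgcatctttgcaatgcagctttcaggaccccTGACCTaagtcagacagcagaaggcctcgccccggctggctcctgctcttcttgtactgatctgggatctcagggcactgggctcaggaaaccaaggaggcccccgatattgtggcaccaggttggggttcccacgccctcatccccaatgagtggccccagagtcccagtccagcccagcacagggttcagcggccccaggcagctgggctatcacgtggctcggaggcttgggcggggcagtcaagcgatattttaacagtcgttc
The hexamer starts at base 23 of the Cd36 window and at base 33 of the Plin2 window, each time once. Searched on both strands, it occurs in 5340 of 32851 promoter windows of this length (16.3%). The spaced repeat AGGTCANAGGTCA occurs in 13 windows (0.0396%) and in neither of these 2. A match is a run of letters and not a shown binding site.

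Gpihbp1 anchors lipoprotein lipase on the luminal face of capillary endothelium and carries it across the cell. Cells under the endothelial rule held 2118 UMIs (1783 CPM, 1708 to 1861) in HFD and 1330 UMIs (2031 CPM, 1924 to 2144) in CD. The 155 WD cells with Pecam1 or Cdh5 held 0, which allows up to 1.32 CPM and up to 1.94% of cells with a UMI. C1q cells held 14 UMIs in WD (0.234 CPM), 219 in HFD (33.2 CPM) and 125 in CD (11.0 CPM). The endothelial level was 53.7-fold (46.7 to 62.0) that of C1q cells in HFD and 185-fold (154 to 224) in CD. With every cell thinned to 1000 UMIs, 71.3% of cells under the endothelial rule had a Gpihbp1 UMI in HFD and 78.2% in CD, against 2.10% and 0.611% of C1q cells. Unthinned, the shares were 78.6% and 89.3%, against 5.29% and 2.01%, at median depths of 1897 and 2767 UMIs, against 2954 and 4319 UMIs. No cell was too shallow for this thinning. Near-empty barcodes held 139 CPM in HFD and 58.7 CPM in CD, above the C1q cells of the same library in both.

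Lpl encodes the lipase itself, which macrophages as well as muscle cells make. It was higher under the endothelial rule, with 632 CPM in HFD and 541 CPM in CD, than in C1q cells, with 99.4 and 232 CPM, a ratio of 6.36 (5.72 to 7.07) in HFD and 2.33 (2.08 to 2.61) in CD. In CD the log2 ratio of 1.22 was 0.39 when cells with more than 1 erythroid or cardiomyocyte UMI were left out, an alternative chosen after the data had been seen. WD C1q cells held 89.9 CPM (87.5 to 92.3), and the WD cells with Pecam1 or Cdh5 held 252 CPM. Rest cells held 224 CPM in WD, 221 CPM in HFD and 402 CPM in CD, so C1q cells had the lowest Lpl level of the 3 cell classes in each library. Near-empty barcodes held 87.4 CPM in HFD (73.6 to 103), with an interval that overlaps that of HFD C1q cells (92.0 to 107), and 94.8 CPM in CD, below C1q cells. Per endothelial marker UMI, as defined below, Lpl gave 0.0963 under the endothelial rule and 0.924 in C1q cells in HFD. In CD these values were 0.0818 and 3.78. The divisor itself was 6567 against 108 CPM in HFD and 6612 against 61.4 CPM in CD. A gene raised less than these markers under the endothelial rule must give a lower value there.

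Angptl4 encodes a secreted inhibitor of lipoprotein lipase that fatty acids and fasting induce. It was sparse everywhere, with 93 UMIs in all WD cells, 45 in HFD and 163 in CD. Cells under the endothelial rule held 31 UMIs in HFD (26.1 CPM, 17.7 to 37.0) and 60 in CD (91.6 CPM, 69.9 to 118). C1q cells held 72 UMIs in WD (1.20 CPM), 10 in HFD (1.52 CPM) and 86 in CD (7.55 CPM), with intervals that overlap between WD and HFD. CD was thus highest in both classes. Near-empty barcodes held 2.46 CPM in HFD (0.671 to 6.30) and 6.57 CPM in CD (3.59 to 11.0), not separated from C1q cells by their intervals in either library.

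Cd36 encodes a membrane receptor for long-chain fatty acids and oxidised lipoproteins, found on capillary endothelium and on macrophages. The endothelial rule gave 1781 CPM in HFD (1705 to 1858) and 3091 in CD (2958 to 3229), 7.07-fold and 6.85-fold the C1q cells of the same library. C1q cells still held most of its cell UMIs in WD (90.4%) and CD (70.1%) and 42.3% in HFD. C1q cells stood at 487 CPM in WD, 252 CPM in HFD and 451 CPM in CD. Thinned to 1000 UMIs, 31.9% of C1q cells in WD, 20.9% in HFD and 31.7% in CD had a UMI, so HFD was the low library on both scales. Neither scale accounts for intron length, with which ratios to WD moved as given below. Rest cells held 255, 174 and 174 CPM and near-empty barcodes 298 CPM in HFD and 264 CPM in CD. In HFD the level of C1q cells thus lay below that of near-empty barcodes, and in CD above it.

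Fabp4 encodes a cytosolic fatty acid carrier of adipocytes, macrophages and capillary endothelium. Cells under the endothelial rule held 20131 UMIs in HFD (16947 CPM, 16714 to 17183) and 14389 UMIs in CD (21978 CPM, 21620 to 22340), which is 86.5% of all cell UMIs of Fabp4 in HFD and 84.8% in CD. The WD cells with Pecam1 or Cdh5 held 47 UMIs (20.6 CPM). C1q cells held 797 UMIs in WD (13.3 CPM), 1877 in HFD (284 CPM) and 2065 in CD (181 CPM). The level under the endothelial rule was 59.6-fold (56.8 to 62.5) that of C1q cells in HFD and 121-fold (116 to 127) in CD. Thinned to 1000 UMIs, 95.9% and 96.4% of those cells in HFD and CD had a Fabp4 UMI, against 12.3% and 5.23% of C1q cells. Rest cells held 12.6 CPM in WD, 1404 CPM in HFD and 521 CPM in CD, and 32 of the 228 HFD rest cells, with at least 4 endothelial markers but without Pecam1 or Cdh5, held 75.3% of their Fabp4 UMIs. Near-empty barcodes held 1632 CPM in HFD and 776 CPM in CD, above C1q cells.

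Fabp5 encodes the epidermal type carrier, which macrophages and endothelium both use. The endothelial rule gave 912 CPM in HFD (858 to 968) and 964 in CD (890 to 1042), 17.5-fold and 9.94-fold the C1q level. C1q cells stood at 23.0 CPM in WD, 52.1 CPM in HFD and 96.9 CPM in CD, and rest cells at 119, 191 and 753 CPM. The intervals of the CD rest cells (700 to 809 CPM) and of the CD cells under the endothelial rule do not overlap, and near-empty barcodes were lower than C1q cells in CD (64.3 CPM) but not in HFD (87.4 CPM).

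Plin2 encodes the coat protein of lipid droplets in most cells that are not adipocytes. Of the 7, Plin2 alone was lower under the endothelial rule than in C1q cells, with 125 CPM in HFD (106 to 147) and 141 in CD (113 to 172), against 192 CPM and 333 CPM in C1q cells. WD C1q cells stood at 346 CPM (341 to 350). Thinned to 1000 UMIs, 25.1% of C1q cells in WD, 16.0% in HFD and 26.2% in CD had a UMI. C1q cells held 87.5% of the cell UMIs in WD, 81.9% in HFD and 89.9% in CD. Near-empty barcodes held 91.1 CPM in HFD and 181 CPM in CD, below C1q cells in both.

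Taken as a list, 6 members were at least 1.5-fold higher under the endothelial rule than in C1q cells and 1, Plin2, was lower, in both HFD and CD. Among all genes with at least 20 UMIs, 40.3% were higher and 20.5% lower by that fold in HFD, and 35.9% higher and 25% lower in CD. The median log2 ratio of the members was 4.11 in HFD and 3.31 in CD, beside 0.37 and 0.25 over all genes. With at most 1 mural UMI per cell, 6 members were higher in both libraries. With at most 1 erythroid or cardiomyocyte UMI, 6 were higher in HFD and 5 in CD, where the log2 ratio of Lpl was 0.39. Plin2 was past 1.5-fold in HFD under 9 of 17 alternatives and in CD under 17 of 17.

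**Figure D1:**
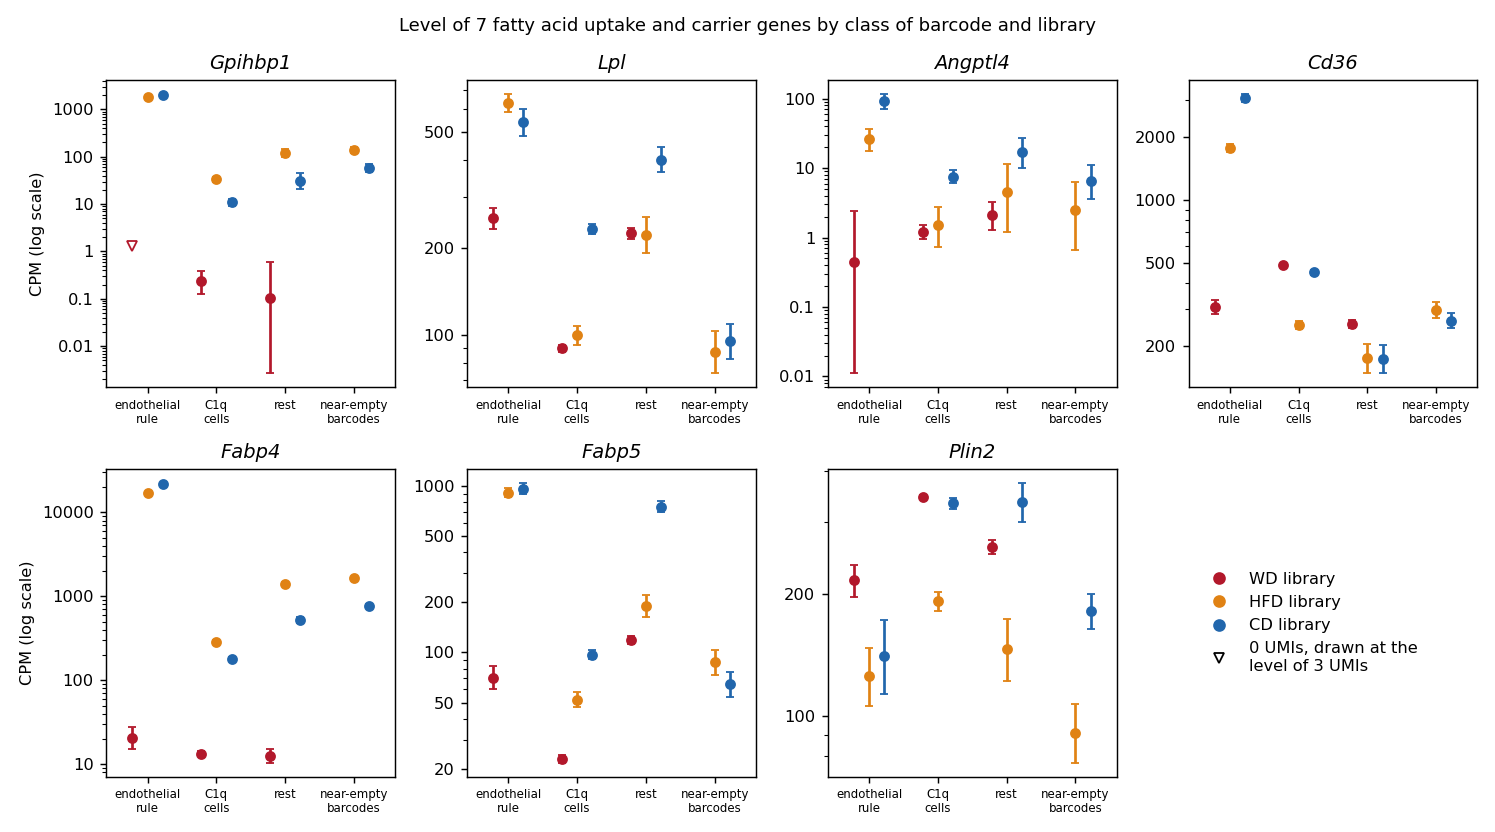
CPM (log scale) of each gene in cells under the endothelial rule, C1q cells, rest cells and, for HFD and CD, near-empty barcodes, with 95% counting intervals; each point is 1 class of 1 library. Fabp4 and Gpihbp1 stand far higher under the endothelial rule in HFD and CD than in any other class, Plin2 does not, and WD has no comparable endothelial class.

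To see how far each gene's counts in other classes moved with endothelial RNA, UMIs were divided by those of 6 endothelial markers (Cdh5, Kdr, Pecam1, Egfl7, Ly6c1 and Flt1). Pecam1 and Cdh5 chose the class, so the ratios are a description. By the rule, rest cells hold 0 UMIs of both, and every cell under the endothelial rule holds a UMI of either. Under that rule, Pecam1 and Cdh5 made 886 and 814 of 7801 marker UMIs in HFD and 426 and 455 of 4329 in CD. The choice raises the ratios of rest cells and lowers those under the endothelial rule, so their order between these classes is not read. Fabp4 gave 2.58 UMIs per marker UMI under the endothelial rule, 2.64 in C1q cells, 3.71 in rest cells and 2.88 in near-empty barcodes in HFD, and 3.32, 2.95, 3.53 and 4.00 in CD. The marker sum itself was 6567 CPM under the endothelial rule against 108 CPM in C1q cells in HFD, and 6612 against 61.4 CPM in CD, so the Fabp4 ratio varied far less than the marker level. Gpihbp1 gave 0.272 under the endothelial rule against 0.308, 0.319 and 0.244 in C1q cells, rest cells and near-empty barcodes in HFD, and 0.307 against 0.179, 0.212 and 0.303 in CD. The Gpihbp1 interval of CD C1q cells (0.147 to 0.217) lies below that of cells under the endothelial rule (0.289 to 0.327).

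The other 5 genes departed from one ratio. Plin2 gave 0.0191 UMIs per marker UMI under the endothelial rule against 1.78 in C1q cells in HFD, and 0.0213 against 5.43 in CD. Cd36 gave 0.271 against 2.34 in HFD and 0.468 against 7.35 in CD, and Fabp5 gave 0.139 against 0.485 and 0.146 against 1.58. Angptl4 gave 0.00397 against 0.0141 in HFD and 0.0139 against 0.123 in CD, so these genes all had more UMIs per endothelial marker UMI in C1q cells. The markers are the divisor, so any gene raised less than they are under the endothelial rule must give a higher value in C1q cells. In WD C1q cells Fabp4 gave 0.762 (0.694 to 0.836) and Gpihbp1 0.0134, both below any HFD or CD class, with the marker sum at 17.5 CPM, of which Pecam1 made 12.2 CPM.

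**Figure D2:**
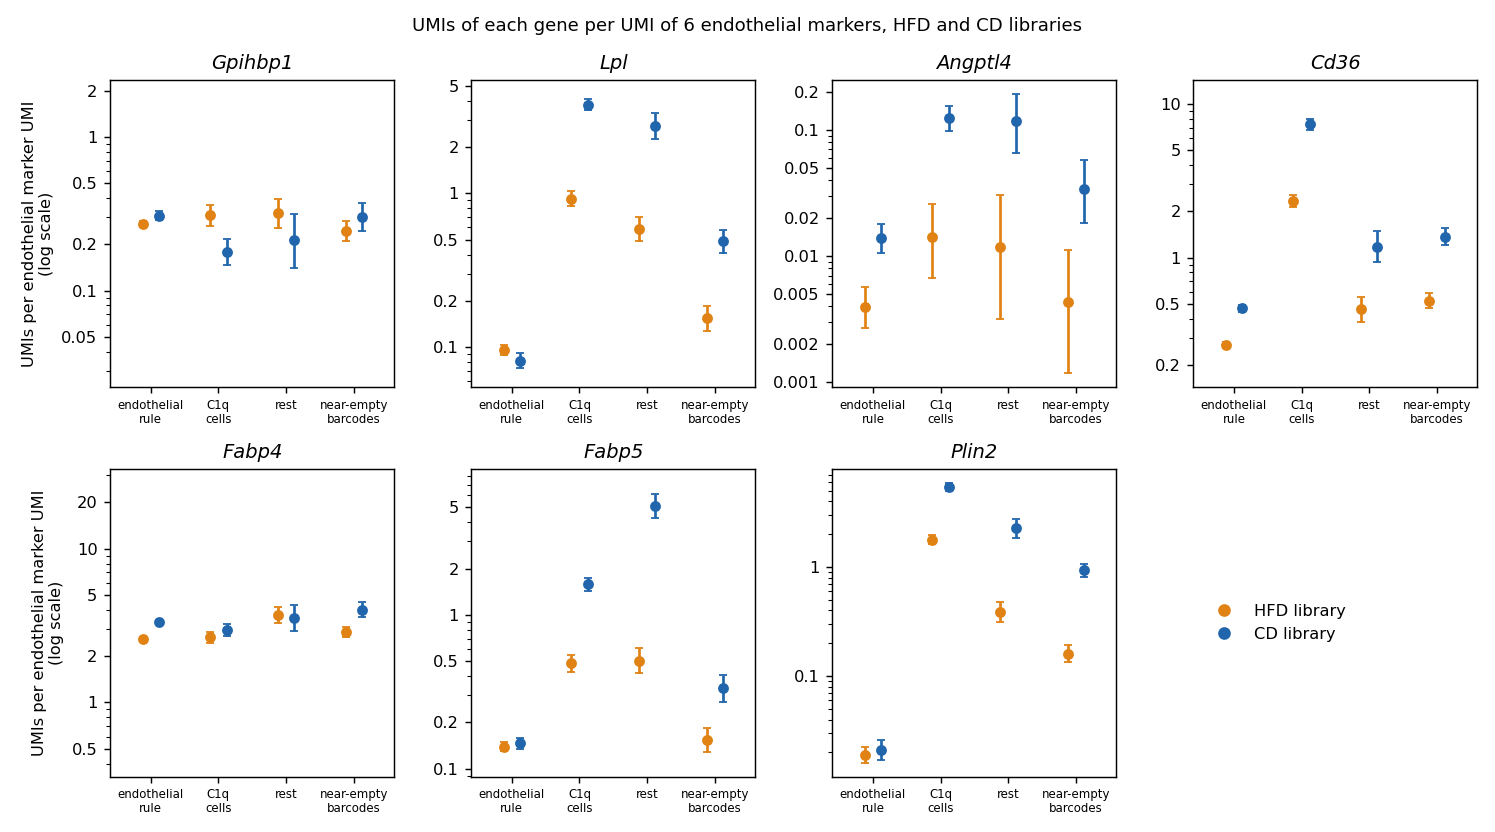
UMIs of each gene per UMI of 6 endothelial markers (log scale) by class in HFD and CD, with 95% counting intervals. Fabp4 lies between 2.58 and 4.00 in every class, with Pecam1 and Cdh5, which set the classes, among the markers. Per marker UMI, Plin2, Cd36 and Lpl lie far higher in C1q cells, although the CPM of Cd36 and Lpl was higher under the endothelial rule.

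Within C1q cells, the UMIs of Fabp4 and Gpihbp1 were gathered in few cells. C1q cells were split by their UMIs of Pecam1, Cdh5, Kdr, Flt1 and Egfl7. Cells with 0 such UMIs held Fabp4 at 10.5 CPM in WD, 104 CPM in HFD and 47.8 CPM in CD. Cells with 1 held it at 20.1, 367 and 72.7 CPM, and cells with 2 or more at 25.7, 5751 and 4025 CPM. Only 45 HFD and 45 CD cells had 2 or more, and they held 55.1% and 73.3% of the Fabp4 UMIs of C1q cells and 59.8% and 80.8% of those of Gpihbp1. By Fabp4 alone, 9 WD, 35 HFD and 28 CD C1q cells had 10 or more UMIs and held 23.1%, 60.5% and 76.3% of its UMIs. At least 4 of the 10 endothelial markers were found in 0 WD, 35 HFD and 22 CD C1q cells, and these held 56.6% of the Fabp4 UMIs of HFD and 69.3% of those of CD. They stay in the levels given above, and the effect of removing the highest doublet scores on Fabp4 is given with the HFD and CD comparison.

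Cd36, Plin2 and Lpl differed less. Cd36 stood at 499, 224 and 438 CPM in WD, HFD and CD C1q cells with 0 endothelial UMIs, and at 428, 1045 and 989 CPM in those with 2 or more. Plin2 stood at 349, 194 and 331 CPM with 0, and at 349, 133 and 383 CPM with 2 or more. Lpl stood at 83.9, 94.0 and 229 CPM with 0, and at 134, 272 and 332 CPM with 2 or more. Cells with 0 endothelial UMIs held 88.3% of the Plin2 UMIs of HFD C1q cells and 87.6% of those of CD.

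**Figure D3:**
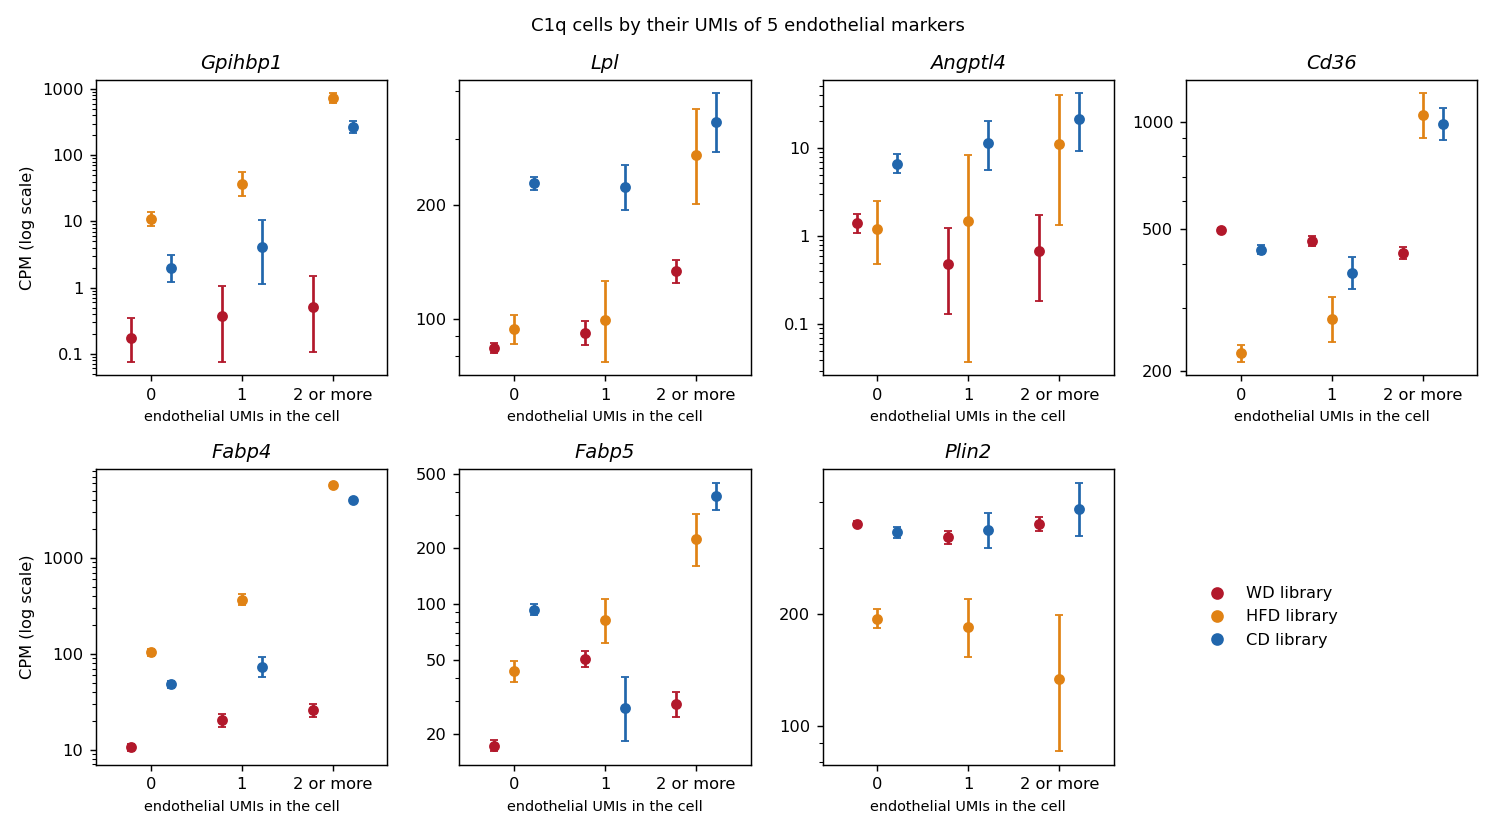
CPM (log scale) of each gene in C1q cells with 0, 1 or at least 2 UMIs of 5 endothelial markers, by library, with 95% counting intervals. Fabp4 and Gpihbp1 climb steeply with endothelial UMIs in HFD and CD, Plin2 stays level in WD and CD, and WD shows no steep climb for any gene.

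C1q cells were also read in 3 ranges of marker counts. A cell entered the first range when Gpnmb and Spp1, markers of lipid-associated macrophages, made at least 0.1% of UMIs and at least 2 UMIs. The second range needed the same of Lyve1, Folr2 and Timd4, markers of resident macrophages, and all others formed the third. The first range held 14 WD, 16 HFD and 36 CD cells, the second 1834, 914 and 1226 cells, and the third 1869, 1072 and 1031 cells. A range is set by counts and is no cell type, and depth differs between libraries. Of the cells in the second range, 3 in WD, 125 in HFD and 81 in CD had no more than 3 UMIs of its markers.

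Fabp5 was the member most gathered in the first range. It stood at 245 CPM (187 to 316) there in WD, 880 CPM in HFD (708 to 1082) and 1938 in CD (1797 to 2087), against 13.9, 20.5 and 15.7 CPM in the resident range. The ratio of the first range to the resident range was 17.6 (13.2 to 23.1) in WD, 43.0 (30.8 to 60.4) in HFD and 123 (99.7 to 154) in CD. The 36 CD cells held 63.8% of the Fabp5 UMIs of CD C1q cells. The same range was present among rest cells, where 11 CD cells held 60.5% of the Fabp5 UMIs of that class and 5 WD cells held 34.5%.

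Lpl was also higher in the first range, with ratios to the resident range of 3.94 (3.07 to 4.99) in WD, 2.64 (1.63 to 4.09) in HFD and 4.89 (4.28 to 5.57) in CD. Plin2 had ratios of 1.10 (0.896 to 1.34), 2.38 (1.76 to 3.15) and 2.50 (2.21 to 2.82). Cd36 had ratios of 1.12 (0.947 to 1.32), 0.345 (0.178 to 0.605) and 1.47 (1.30 to 1.66), with no common direction, and 12 Cd36 UMIs behind the HFD value. Gpihbp1 had 0 UMIs in the first range of every library.

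Between the 2 large ranges the point ratios of all 7 genes had the same direction in the 3 libraries, and for 5 genes every counting interval excluded 1. The share of all genes that do the same was not counted, so these counts do not set the members apart. Cd36 was higher in the resident range than in the other range, by 1.21 (1.19 to 1.24) in WD, 1.93 (1.75 to 2.14) in HFD and 1.59 (1.498 to 1.69) in CD. Plin2 was higher there too, by 1.20, 1.38 and 1.21. Lpl was lower, at 0.695, 0.727 and 0.604 of the other range, Fabp5 at 0.450, 0.366 and 0.250, and Fabp4 at 0.627, 0.674 and 0.282. Gpihbp1 was at 0.685, 0.602 and 0.276 and Angptl4 at 2.04, 1.11 and 1.31, with intervals that include 1 in WD for Gpihbp1 and in HFD and CD for Angptl4. Shares of cells with a Fabp4 UMI lay closer than these ratios. They were 9.54%, 24.9% and 14.8% in the resident range and 11.3%, 27.9% and 16.0% in the other. For Gpihbp1 they were 0.327%, 5.14% and 1.47% against 0.428%, 5.50% and 2.72%. The C1q cells with at least 4 endothelial markers, 35 in HFD and 22 in CD, held 56.6% and 69.3% of the Fabp4 UMIs of C1q cells. Their part in the Fabp4 and Gpihbp1 ratios was not tested. Resident markers and members were read in the same cells and share their depth.

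**Figure D4:**
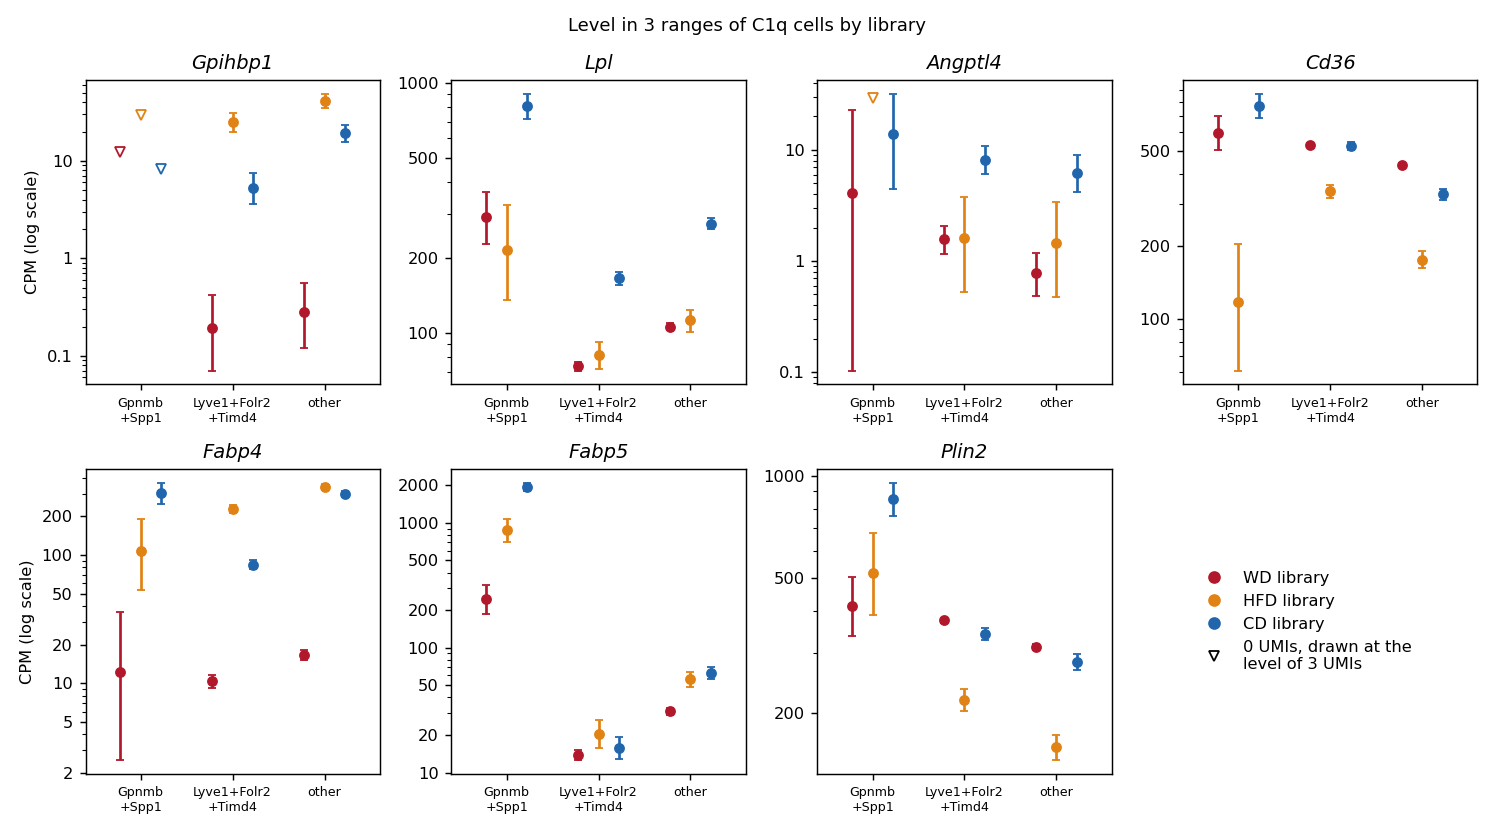
CPM (log scale) of each gene in C1q cells of the Gpnmb and Spp1 range, the Lyve1, Folr2 and Timd4 range and the other range, by library, with 95% counting intervals; open triangles mark 0 UMIs. Fabp5 is highest in the first range, then in the other and then in the resident range in every library, and Cd36 and Plin2 are higher in the resident than in the other range.

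Between HFD and CD, which share the software version, C1q cells differed by at least 1.5-fold in all 7 genes, 2 of them higher and 5 lower in HFD. Gpihbp1 was 3.02-fold (2.42 to 3.80) and Fabp4 1.57-fold (1.47 to 1.67) as high in HFD as in CD. Angptl4 was 4.98-fold lower in HFD (2.58 to 10.8), Lpl 2.33-fold (2.14 to 2.54), Fabp5 1.86-fold (1.65 to 2.10), Cd36 1.79-fold (1.69 to 1.89) and Plin2 1.74-fold (1.63 to 1.85). Of 11239 genes with at least 20 UMIs, 6.74% were higher and 8.41% lower by that fold, and the median log2 ratio was -0.84 over the members and -0.03 over all genes. Near-empty barcodes carried the higher Fabp4 and Gpihbp1 levels in HFD too, at 1632 against 776 CPM and 139 against 58.7 CPM, and the part of free endothelial RNA in these ratios was not tested. For the genes lower in HFD, near-empty barcodes of HFD and CD held 2.46 and 6.57 CPM of Angptl4, 91.1 and 181 CPM of Plin2, 87.4 and 94.8 CPM of Lpl, 298 and 264 CPM of Cd36, and 87.4 and 64.3 CPM of Fabp5. In HFD and CD C1q cells, erythroid markers summed to 8.79 and 570 CPM, neutrophil markers to 121 and 812 CPM, cardiomyocyte markers to 334 and 135 CPM and endothelial markers to 143 and 80.7 CPM. The part of free RNA in the lower values, and of these other cells in any of the ratios, was not tested. In C1q cells with 0 endothelial UMIs the log2 ratio was 1.11 for Fabp4 and 2.46 for Gpihbp1. The median depth of these cells was 2877.5 UMIs in HFD and 4225.5 in CD, so a count of 0 is the weaker filter in HFD. The part of depth in these ratios was not tested.

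Fabp5 changed sides without the Gpnmb and Spp1 range: leaving out its 16 HFD and 36 CD cells gave a log2 ratio of 0.11 in place of -0.89, and Fabp5 was past 1.5-fold in the same direction under 10 of 14 alternatives. Fabp4 lay close to the fold used, and its log2 ratio was 0.51 with a mitochondrial limit of 5% and 0.52 with the highest doublet scores removed, below 1.5-fold in both. Cd36, Lpl, Angptl4, Plin2 and Gpihbp1 stayed past 1.5-fold in the same direction under each of their 14 alternatives.

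Under the endothelial rule fewer members differed between HFD and CD. Cd36, at 1781 and 3091 CPM in HFD and CD, was 1.74-fold lower in HFD (1.63 to 1.85), and Angptl4, at 26.1 and 91.6 CPM, was 3.51-fold lower (2.24 to 5.61). Fabp4 (log2 ratio -0.37), Gpihbp1 (-0.19), Fabp5 (-0.08), Plin2 (-0.16) and Lpl (0.23) lay within 1.5-fold. With cells thinned to 1000 UMIs in a single random draw, Plin2 was at 0.84, past 1.5-fold in the other direction. In a separate draw, 13.8% (10.8 to 17.1) of HFD and 11.2% (7.13 to 16.4) of CD cells had a Plin2 UMI. These intervals overlap, so the thinned value sets no direction. Over all genes tested, 14.1% were higher and 9.09% lower by 1.5-fold. Restricting both libraries to cells with at most 1 erythroid or cardiomyocyte UMI left 434 HFD and 78 CD cells and put Lpl at 0.97 and Fabp4 at 0.05, while Cd36 and Angptl4 kept their direction past 1.5-fold in all 16 alternatives.

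Between WD and CD, no member was higher in WD C1q cells by 1.5-fold and 5 were lower, beside 47.4% higher and 26.8% lower of all genes. Gpihbp1 was 46.9-fold lower in WD (26.9 to 88.3), Fabp4 13.6-fold (12.5 to 14.8), Angptl4 6.28-fold (4.54 to 8.71), Fabp5 4.22-fold (3.89 to 4.57) and Lpl 2.58-fold (2.46 to 2.70). Cd36 (ratio 1.08, 1.05 to 1.11) and Plin2 (1.04, 1.00 to 1.07) lay within 1.5-fold. Endothelial markers summed to 17.9 CPM in WD C1q cells and 80.7 CPM in CD C1q cells, and their part in the Fabp4 and Gpihbp1 ratios was not tested. In C1q cells with 0 endothelial UMIs, the log2 ratios were -2.18 for Fabp4 and -3.51 for Gpihbp1, in place of -3.77 and -5.55. Their median depth was 11768.5 UMIs in WD and 4225.5 in CD, so a count of 0 is the weaker filter in CD.

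Between WD and HFD, Cd36 was 1.93-fold (1.84 to 2.03) and Plin2 1.80-fold (1.70 to 1.91) as high in WD C1q cells, where 47.9% of all genes were higher and 25.9% lower by 1.5-fold. Gpihbp1 was 142-fold lower in WD (82.8 to 264), Fabp4 21.4-fold (19.7 to 23.2) and Fabp5 2.27-fold (2.01 to 2.55). Lpl, at 89.9 CPM in WD and 99.4 CPM in HFD, and Angptl4, at 1.20 and 1.52 CPM, lay within 1.5-fold. Angptl4 rests on 10 HFD UMIs, and its log2 ratio of -0.33 was -0.59 with a C1q threshold of 0.1% and 0.70 with one of 1%, past 1.5-fold in opposite directions. Endothelial markers summed to 17.9 CPM in WD C1q cells and 143 CPM in HFD C1q cells, and their part in the Gpihbp1 and Fabp4 ratios was not tested. In C1q cells with 0 endothelial UMIs these log2 ratios were -5.97 for Gpihbp1 and -3.30 for Fabp4, in place of -7.15 and -4.42. Such cells had a median of 11768.5 UMIs in WD and 2877.5 in HFD, so a count of 0 is the weaker filter in HFD. In these ratios, which do not account for intron length, Cd36 and Plin2 had like orders, with WD near CD and HFD below both. Relative to genes of like intron length, as described next, the order of Cd36 did not hold. It was then lower in WD, at log2 values of -1.15 against HFD and -2.04 against CD.

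Ratios with WD moved with the intron length of a gene. Over 5 equal groups of genes by bases outside exons, the median log2 ratio of WD over CD went from -0.81 in the group with the least to -0.42, 0.11, 0.90 and 2.15 in the group with the most, and that of WD over HFD ran from -0.75 to 2.10. Fabp4, Fabp5, Gpihbp1 and Angptl4 belong to the group with the least, Lpl and Plin2 to the middle group and Cd36 to the group with the most. Relative to its own group, Cd36 was lower in WD, with log2 values of -1.15 against HFD and -2.04 against CD, while Plin2 was at 0.72 and -0.05. The other 5 members kept their sign in both comparisons, except Angptl4, at 0.42 against HFD. Diet, software version and the counting of introns, on which the sources used here are silent, cannot be told apart in these values.

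**Figure D5:**
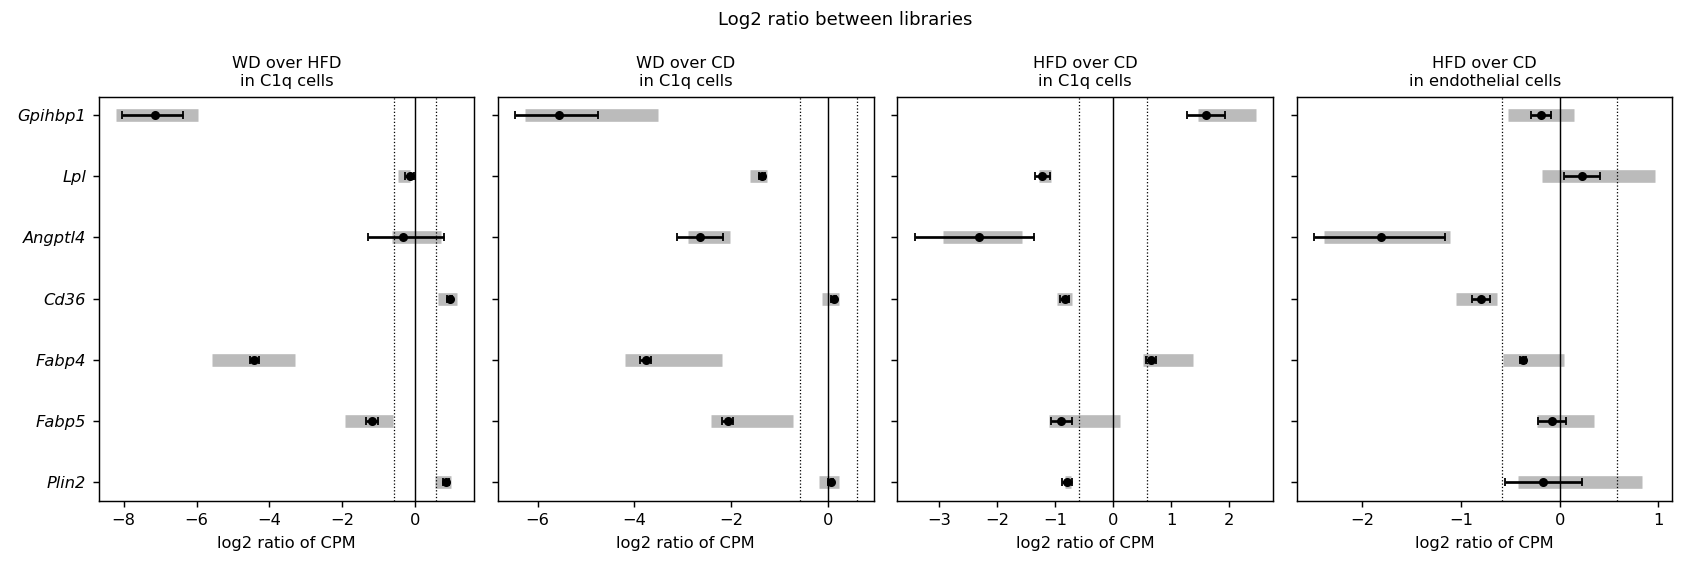
Log2 ratio of CPM between libraries for each gene in C1q cells (3 panels) and under the endothelial rule (right panel); points are the values reported with 95% counting intervals, grey bars the range over the alternative settings other than the one on intron length, and dotted lines 1.5-fold. Gpihbp1 and Fabp4 lie right of 0 for HFD over CD in C1q cells and near 0 under the endothelial rule, and far left of 0 for both WD comparisons.

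Beyond the members, 48 other genes of fatty acid transport, lipoprotein handling, storage and oxidation were counted. In C1q cells of HFD over CD, 37 had at least 20 UMIs, of which 2 were higher, 3 lower and 32 neither, with a median log2 ratio of -0.11, beside the 6.74% higher and 8.41% lower of all genes. Cav1, the caveolar coat protein, was at 19.1 CPM in HFD and 10.7 in CD, and Mgll, monoglyceride lipase, at 18.9 and 8.69 CPM, the 2 that were higher. Both were also among the most endothelial of the list, with ratios of cells under the endothelial rule over C1q cells of 66.5 and 60.7 in HFD and 122 and 146 in CD. G0s2, an inhibitor of triglyceride lipase, was at 2.27 CPM in HFD and 34.9 in CD, 15.3-fold lower, and the fatty acid transporter Slc27a1 at 9.25 and 30.6 CPM. Neutrophil markers in the same cells summed to 121 CPM in HFD and 812 CPM in CD, and their part in the G0s2 values was not tested. The lysosomal lipase Lipa, at a ratio of 0.667, lay within 1.5-fold.

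In cells under the endothelial rule over C1q cells, 13 of 37 list genes were higher and 7 lower in HFD, and 15 of 37 were higher and 10 lower in CD. Over all genes the shares were 40.3% and 20.5% in HFD, and 35.9% and 25% in CD. Pparg, the nuclear receptor of lipid storage, was 11.3-fold and 11.2-fold as high, while Lrp1, a lipoprotein receptor of macrophages, stood at 10.1 CPM against 105 CPM in HFD and at 10.7 against 100 CPM in CD. Fabp3, the carrier of heart muscle, stood at 402 CPM under the endothelial rule in CD and 38.5 CPM in C1q cells, beside cardiomyocyte markers of 1190 and 135 CPM; in HFD it stood at 50.5 and 48.2 CPM, beside 285 and 334 CPM. The part of muscle RNA in the Fabp3 value was not tested. Under the endothelial rule, HFD over CD gave 1 higher, 5 lower and 24 neither of 30 list genes, beside 14.1% higher and 9.09% lower of all genes. Fabp3, 7.95-fold lower in HFD, and Ucp2, at 73.2 against 141 CPM, were the lower ones with at least 100 UMIs.

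In C1q cells, 15 of 43 list genes were higher and 11 lower in WD than in CD, and 19 of 42 higher and 10 lower than in HFD, with median log2 ratios of -0.02 and 0.31 beside 0.46 and 0.48 over all genes. Of all genes, 47.4% were higher and 26.8% lower in WD than in CD, and 47.9% and 25.9% than in HFD. The list genes were not set against the group of their intron length, with which ratios to WD moved as given above. Ppard, a nuclear receptor for fatty acids, stood at 157 CPM in WD, 9.09 CPM in HFD and 7.46 CPM in CD. Gpat3, an enzyme of triglyceride synthesis, stood at 5.71, 0.303 and 0.439 CPM, with 2 UMIs behind the HFD value and 5 behind the CD value. Cav1 (0.468 CPM) and Mgll (0.769 CPM) were the lowest in WD relative to both libraries, followed by Agpat2, at 12.8 CPM in WD, 43.8 in HFD and 43.7 in CD. G0s2 stood at 39.8 CPM in WD, near CD and 17.5-fold above HFD. Neutrophil markers summed to 1190 CPM in WD, 121 CPM in HFD and 812 CPM in CD C1q cells, and their part in these G0s2 levels was not tested.

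Likeness between genes was read as Pearson's r of log-scaled counts over cells, as a description. Over all HFD and CD cells, 2717 and 2679 cells, Fabp4 was most like Ly6c1 (mean r 0.871), Cav1 (0.855) and Cavin2 (0.855), and Gpihbp1 most like Rgcc (0.833), Cav1 (0.825) and Gng11 (0.823). These are genes of the endothelial class, and the cells compared differ in class and share depth. Fabp4 and Gpihbp1 themselves had r of 0.832 in HFD and 0.882 in CD, and within the cells under the endothelial rule 0.670 and 0.596. Fabp4 and Cd36 had 0.651 and 0.754 within those cells, while Fabp4 and Plin2 had 0.0715 and 0.0215. Within C1q cells of the 3 libraries the likest genes were Spp1 for Fabp5 (0.204), Folr2 for Cd36 (0.268), Fn1 for Lpl (0.211), Ctsd for Plin2 (0.193), Sparc for Fabp4 (0.323) and for Gpihbp1 (0.343), and Gng11 for Angptl4 (0.0831). The Sparc values are means over the libraries: in WD r was 0.0666 for Fabp4 and 0.0124 for Gpihbp1, against 0.428 and 0.464 in HFD and 0.475 and 0.554 in CD. At this depth such values are weak and set no order among genes.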

How the data were processed

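The authors deposited raw UMI counts per gene and barcode for 3 libraries of sorted heart macrophages, with no normalization; the software version was 3.0.1 for HFD and CD and 7.2.0 for WD, per the file headers, and GRCm38 and Seurat are named per the submitters' processing notes. On pooling of mice, cell filters and intron counting the sources used here are silent. Genes shared by Ensembl ID were kept (30406), cells were filtered and classed as the report states, UMIs were summed per class, and CPM (exact Poisson), ratios (exact conditional) and shares (Clopper-Pearson) carry 95% intervals. With 1 library per diet there is no test; a gene was called higher or lower past 1.5-fold with at least 20 UMIs, in either direction. A member's count of 0 is given with the limit that 3 counts allow, or with the upper end of its 95% interval. Doublets were left in and removed as an alternative. Library totals were 79269380 UMIs in WD, 16630481 in HFD and 17464149 in CD. Python 3.11.15, numpy 2.4.6, scipy 1.17.1 and scikit-learn 1.9.0 were used, and the counting was tested on simulated data. Alternatives changed the filters, class rules, weighting, thinning, totals and minimum counts. Members and lists were chosen with earlier results of these data known. Named were the 7 members, list genes with at least 100 UMIs and the 3 largest ratios each way, and the 3 likest genes; 1 list gene is not reported here.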

Additional observations from a re-analysis of the deposited data

Results flagged for a closer look

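For 3 genes the ratio of HFD to CD pointed one way in C1q cells and the other way in cells under the endothelial rule. That is what brought them here, and with 1 library per diet the difference was not tested. Only the members were searched, and the share of all genes that do the same was not counted, so this count does not set the members apart. Fabp4 had a log2 ratio of 0.65 in C1q cells and -0.37 under the endothelial rule. Gpihbp1 had 1.60 and -0.19. Lpl went the opposite way, with -1.22 in C1q cells and 0.23 under the endothelial rule. The values under the endothelial rule are small: with at most 1 erythroid or cardiomyocyte UMI per cell they were 0.05 for Fabp4, 0.14 for Gpihbp1 and 0.97 for Lpl, and with a UMI minimum of 2000 that of Lpl was -0.18. Cd36 and Angptl4, by contrast, were lower in HFD in both classes.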

How the results depend on the processing

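Of 654 recomputed single values, 437 stayed inside the counting interval of the reported value and 215 were counted as moved. Values relative to an intron length group were counted as moved without regard to that interval. Another 2 values past 1.5-fold changed direction, and the cause was not tested. Fabp5, HFD over CD in C1q cells, was at 0.11 (log2) without the Gpnmb and Spp1 range. Cd36, WD over HFD, was at -1.15 relative to its intron length group. The count of members higher in C1q cells was 1 for WD over HFD with totals that leave out mitochondrial, ribosomal protein and the 50 largest genes (Plin2 at 0.54), and 1 for HFD over CD with a mitochondrial limit of 5% and with the highest doublet scores removed, which took out 182 WD, 59 HFD and 57 CD cells. Under the endothelial rule, HFD over CD gave 2 higher after a single random thinning and 1 higher with at most 1 erythroid or cardiomyocyte UMI. It gave 1 lower with a minimum of 100 UMIs, since Angptl4 has fewer. The settings on the endothelial rule between HFD and CD, on mural, erythroid and cardiomyocyte UMIs, on shared barcodes and on intron length were chosen after seeing the data. Leaving out shared barcodes changed none of these counts. No paired analysis was possible because each diet has 1 library, and for the same reason no replicate could be left out. Thinning gave no value for Gpihbp1 and Angptl4 in some comparisons, where no UMI or too few were left. Some values within 1.5-fold also changed sign: Angptl4, WD over HFD in C1q cells, at -0.33, was -0.59 with a C1q threshold of 0.1% (4 members lower) and 0.70 with one of 1% (3 higher). Plin2, HFD over CD under the endothelial rule, at -0.16, was 0.84 after a single random thinning, which sets no direction as given above.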
